A study of Mus musculus with 8 samples.

Results

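The TGF-beta signalling genes and profibrotic effectors described here are 9 genes of the 14578 measured in the left ventricle of mice. They are the ligands Tgfb1, Tgfb2 and Tgfb3, the receptors Tgfbr1 and Tgfbr2, the matrix protein genes Ltbp2, Thbs1 and Thbs4, and the effector Ctgf, which is also called Ccn2. Members were found by gene symbol, without use of their values, and all 9 were present, with 15 transcripts, and passed the filter on low values. The series holds 8 RNA-seq libraries of 3 genotypes on a C57 genetic background, each from the left ventricle at 6 months of age. Wild-type (WT) controls gave 2 libraries. Another 3 came from mdx mice, a heart failure model without dystrophin owing to a mutation of Dmd, and 3 came from mdx sln+/- mice. The mdx sln+/- mice carry the same mutation and have lost 1 copy of Sln, the gene of sarcolipin, an inhibitor of the calcium pump of the sarcoplasmic reticulum. The mutations are not limited to the heart. Sln itself was not analysed here. Nothing in the labels ties the libraries to separate animals, and p-values thus measure only the spread between these samples, which may be technical.

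TGF-beta is secreted as an inactive complex with its own propeptide and is stored in the matrix through latent TGF-beta binding proteins (LTBPs). It is freed by integrins, proteases or thrombospondin 1, and then binds the type II receptor, which recruits and phosphorylates the type I receptor. The type I receptor phosphorylates SMAD2 and SMAD3, which enter the nucleus with SMAD4 and drive genes of the extracellular matrix. In the heart this pathway is known for turning fibroblasts into matrix-producing myofibroblasts, and connective tissue growth factor, the product of Ctgf, is known as a target of the pathway that acts with it in fibrosis.

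Levels are given as log2(abundance + 1), where abundance is the deposited normalized value summed over the transcripts of a gene. Division by transcript length is not stated, so levels are compared between libraries and not between genes. Values of the libraries of a group are listed in the order 1, 2, 3. Fold changes are differences on this scale, which understates changes of low genes, and ± gives limma's standard error. A gene was called where its adjusted p, by limma with Benjamini-Hochberg adjustment over the 13783 genes tested, was under 0.05.

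Several properties of the libraries bear on every value. Dmd, the mutated gene, had a log2 level of 6.60 and 6.98 in the WT libraries and of 4.09 to 4.32 in the 6 others. The Y-linked gene Eif2s3y was lowest in WT 2, at 0.92, and in mdx sln+/- 3, at 1.31, and lay between 3.29 and 6.11 in the other libraries. Calls are therefore also given without these 2 libraries. In the deposited values, mdx 2 and mdx sln+/- 2 together average the same as the other 4 mdx and mdx sln+/- libraries for every transcript, to within 5.12e-05, so a difference between those sets was removed before deposit and was fitted as a term here. The WT libraries, mdx 3 and mdx sln+/- 3 have plain names, whereas the other 4 libraries carry an index number, and no WT library has an indexed name. Depth is unknown, since no counts were used, and the abundances of a library summed to between 780262 and 924253. RNA of the whole tissue was measured, so fewer cells of a type and less RNA per cell cannot be told apart.

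In mdx against WT, the 3 TGF-beta ligand genes rose together, by 1.49-fold to 1.80-fold, and no other member passed the test. Thus 3 of 9 members were called, all of them higher, where 17.7% of all genes were called and 9.56% were called higher. The median log2 fold change was 0.57 over the members and 0.02 over all genes. The mdx and WT libraries did not overlap for 5 members (the 3 ligands, Ctgf and Tgfbr2), and 51.4% of all genes had no overlap.

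Tgfb1 encodes the most studied isoform of the ligand and lies on chromosome 7 from 25687002 to 25705077 on the plus strand (GRCm38, GENCODE M21, as for all gene positions given here). Log2 levels of Tgfb1 were 3.54 and 3.32 in WT; the mdx libraries stood at 4.36, 3.995 and 4.17, while those of mdx sln+/- stood at 3.95, 4.15 and 3.80. Every library of both mdx groups lay above both WT libraries. In mdx against WT, Tgfb1 rose by 0.75 ± 0.15, or 1.68-fold (95% interval 1.32 to 2.13, limma, adjusted p = 0.0163).

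Tgfb2 (chromosome 1, 186622792 to 186705989, minus strand) encodes an isoform known for its part in the forming heart and its valves. Log2 levels of Tgfb2 were 2.87 and 3.06 in WT; the mdx libraries stood at 4.20, 3.75 and 3.50, while those of mdx sln+/- stood at 3.28, 3.46 and 3.47. The 3 groups did not overlap, with mdx highest, mdx sln+/- between and WT lowest. Tgfb2 rose by 0.85 ± 0.19 in mdx against WT, or 1.80-fold (95% interval 1.31 to 2.47, limma, adjusted p = 0.0262).

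Tgfb3 (chromosome 12, 86056745 to 86079041, minus strand) encodes the third isoform. Log2 levels of Tgfb3 were 3.70 and 3.75 in WT; the mdx libraries stood at 4.51, 4.14 and 4.25, while those of mdx sln+/- stood at 3.91, 4.16 and 3.93. Both WT libraries lay below all others, and mdx sln+/- 2 lay above mdx 2 by a small margin. Tgfb3 rose by 0.57 ± 0.13 in mdx against WT, or 1.49-fold (95% interval 1.20 to 1.84, limma, adjusted p = 0.0267).

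The ligand calls depended on the libraries and terms in the fit. Without WT 2, the Tgfb1 difference was 0.64 with an adjusted p (limma) of 0.097, and Tgfb2 and Tgfb3 had adjusted p of 0.087 and 0.101. Without WT 1, Tgfb1 was still called, and the adjusted p of Tgfb2 and Tgfb3 were 0.105 and 0.093. Without mdx sln+/- 1 the call of Tgfb3 was lost (adjusted p = 0.052), as was that of Tgfb2 with only the 2 groups compared (0.068). Without both WT 2 and mdx sln+/- 3, 0 of the 9 members and 172 genes in all were called. With the style of library name as a further term, 0 members were called as well and the ligand differences were 0.64, 0.68 and 0.49. Among the libraries with plain names, mdx 3 exceeded the WT mean by 0.75 for Tgfb1, 0.54 for Tgfb2 and 0.52 for Tgfb3.

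**Figure D1:**
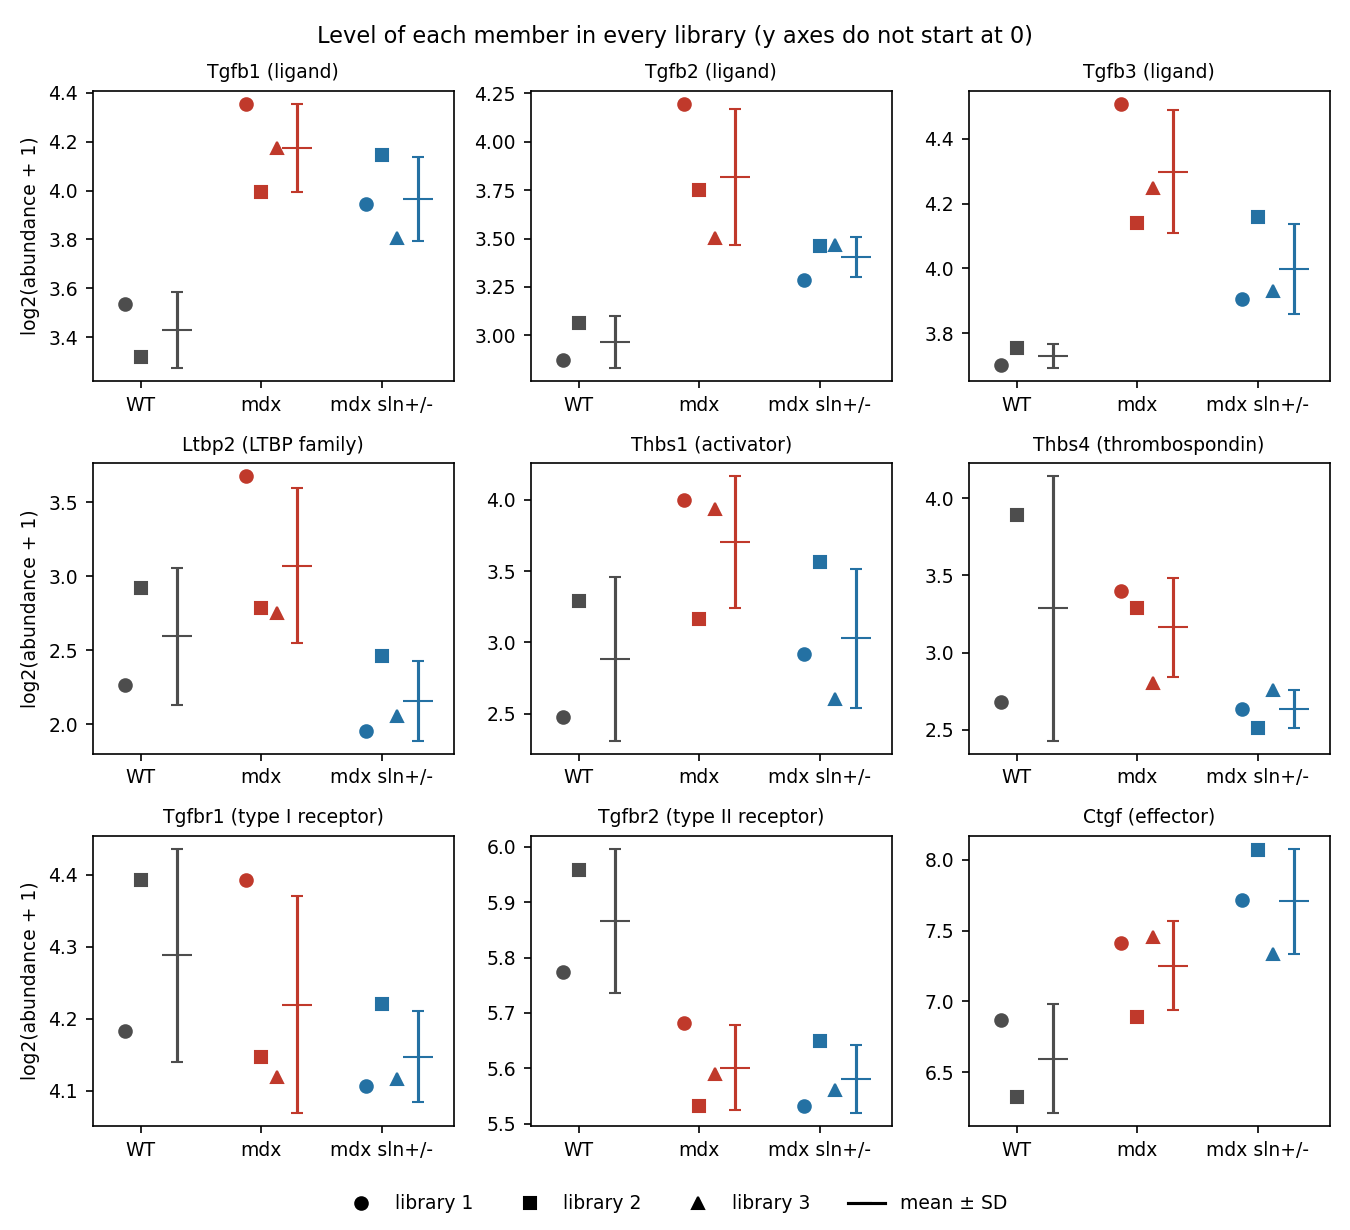
Log2(abundance + 1) of the 9 members in WT, mdx and mdx sln+/- left ventricle, with 1 marker per library and the mean ± SD of each group beside the markers; y axes do not start at 0. For the 3 ligands, the 6 libraries of the mdx groups lie above both WT libraries, and mdx 1 is the highest library for 6 of the 9 members.

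RefSeq (GRCm38.p6) start sites were matched for 6 of the 9 members, and the 250 bases before each were searched for 8 motifs on both strands. These were the SMAD element CAGAC, the AP-1 site TGANTCA, the cyclic AMP element TGACGTCA, the SP1 site GGGCGG, the E-box CACGTG, the EGR1 site GCGNGGGCG, which can overlap the SP1 site, the TATA box TATAAA and the TEAD site GGAATG. The windows of Tgfb1 and Tgfb2, ligand genes that rose, and of Tgfbr2, whose estimate was lower, are shown to compare their letters. Motif matches are in capitals, and each sequence is written 5′ to 3′ on the strand of the gene.
Tgfb1, chr7:25686752-25687001, plus strand: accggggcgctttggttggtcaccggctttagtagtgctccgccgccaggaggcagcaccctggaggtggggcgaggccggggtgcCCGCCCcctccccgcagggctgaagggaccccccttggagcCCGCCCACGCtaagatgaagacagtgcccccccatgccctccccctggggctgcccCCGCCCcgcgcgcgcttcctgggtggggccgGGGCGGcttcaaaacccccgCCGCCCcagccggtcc
Tgfb2, chr1:186705990-186706239, minus strand: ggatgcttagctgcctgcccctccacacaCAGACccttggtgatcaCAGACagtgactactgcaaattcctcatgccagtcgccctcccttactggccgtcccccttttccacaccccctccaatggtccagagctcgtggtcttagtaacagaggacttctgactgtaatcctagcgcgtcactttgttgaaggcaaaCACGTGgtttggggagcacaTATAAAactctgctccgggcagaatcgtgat
Tgfbr2, chr9:116175364-116175613, minus strand: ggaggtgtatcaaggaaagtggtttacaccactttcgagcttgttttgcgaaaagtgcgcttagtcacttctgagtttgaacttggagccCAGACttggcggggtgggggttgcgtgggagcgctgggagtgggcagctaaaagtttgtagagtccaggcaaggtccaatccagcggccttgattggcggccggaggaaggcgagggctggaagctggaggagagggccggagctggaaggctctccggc
The windows of the 2 ligand genes, which rose together, shared none of these motifs. The Tgfb1 window, with a GC content of 75.2%, held 5 SP1 matches and 1 EGR1 match, motifs found in 32.7% and 4.7% of the 32851 windows of this length. The Tgfb2 window, with a GC content of 53.6% and 167 bases in exons annotated by GENCODE M21, held 2 SMAD elements, 1 E-box and 1 TATA box, found in 42.2%, 6.02% and 12.4% of windows. The Tgfbr2 window held 1 SMAD element. A match is a run of letters and not a measured binding site.

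Ltbp2 encodes a protein of fibrillin microfibrils which belongs to the LTBP family but is known not to bind latent TGF-beta itself (chromosome 12, 84783212 to 84876532, minus strand). Log2 levels of Ltbp2 were 2.27 and 2.92 in WT; the mdx libraries stood at 3.68, 2.79 and 2.75, while those of mdx sln+/- stood at 1.95, 2.46 and 2.05. The level of mdx 1 stood above all other libraries, and the other mdx libraries lay within the WT range. The difference of mdx from WT was 0.48 ± 0.33 and did not pass (limma, adjusted p = 0.344).

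Thbs1 encodes thrombospondin 1, a matricellular protein that can free TGF-beta from its latent complex (chromosome 2, 118111876 to 118127133, plus strand). Log2 levels of Thbs1 were 2.48 and 3.29 in WT; the mdx libraries stood at 3.999, 3.17 and 3.94, while those of mdx sln+/- stood at 2.92, 3.56 and 2.604. The WT libraries lay far apart, with mdx 2 between them and mdx 1 and mdx 3 above. The difference of mdx from WT was 0.82 ± 0.38, as large as for the ligands but with a wider spread (limma, adjusted p = 0.175). It passed without mdx 2 (1.08, adjusted p = 0.043), a fit in which the term for the removed difference rested on mdx sln+/- 2 alone.

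Thbs4 encodes thrombospondin 4, a stress-responsive matricellular protein of heart and tendon (chromosome 13, 92751590 to 92794818, minus strand). Log2 levels of Thbs4 were 2.68 and 3.89 in WT; the mdx libraries stood at 3.40, 3.29 and 2.80, while those of mdx sln+/- stood at 2.64, 2.51 and 2.76. WT 2 was the highest of all libraries for this gene. The difference of mdx from WT was -0.12 ± 0.34 (limma, adjusted p = 0.829) and had the opposite sign, 0.48, without WT 2.

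Neither receptor gene was called. Tgfbr1 encodes the type I receptor kinase (chromosome 4, 47353222 to 47414931, plus strand), with log2 levels of 4.18 and 4.39 in WT, of 4.39, 4.15 and 4.12 in mdx and of 4.11, 4.22 and 4.12 in mdx sln+/-. The groups overlapped, and the difference of mdx from WT was -0.07 ± 0.11, with a 95% interval of -0.33 to 0.20 (limma, adjusted p = 0.707).

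Tgfbr2 encodes the type II receptor that binds the ligand first (chromosome 9, 116084293 to 116175360, minus strand). Log2 levels of Tgfbr2 were 5.77 and 5.96 in WT; the mdx libraries stood at 5.68, 5.53 and 5.59, while those of mdx sln+/- stood at 5.53, 5.65 and 5.56, so that both WT libraries lay above the 6 others. The difference from WT was -0.26 ± 0.09 in mdx (limma, adjusted p = 0.0733) and -0.29 ± 0.09 in mdx sln+/- (adjusted p = 0.0565), and neither passed. With group as the only term, Tgfbr2 was called lower in both comparisons (limma, adjusted p = 0.035 and 0.026). Against WT it was also called lower in mdx sln+/- with median-ratio scaling (0.042), with upper-quartile scaling (0.039), without WT 1 (0.0498) and without mdx 1 (0.0498).

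Ctgf encodes a secreted matricellular protein of the CCN family (chromosome 10, 24595442 to 24598683, plus strand). Log2 levels of Ctgf were 6.87 and 6.32 in WT; the mdx libraries stood at 7.41, 6.89 and 7.46, while those of mdx sln+/- stood at 7.72, 8.07 and 7.33. In mdx, 2 libraries stood well above WT while mdx 2 lay just above WT 1, and all mdx sln+/- libraries were above WT. The difference of mdx from WT was 0.66 ± 0.27 (limma, adjusted p = 0.134) and passed without mdx 2 (0.84, adjusted p = 0.0423). In that fit the term for the removed difference rested on mdx sln+/- 2 alone and took up its distance from its group.

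**Figure D2:**
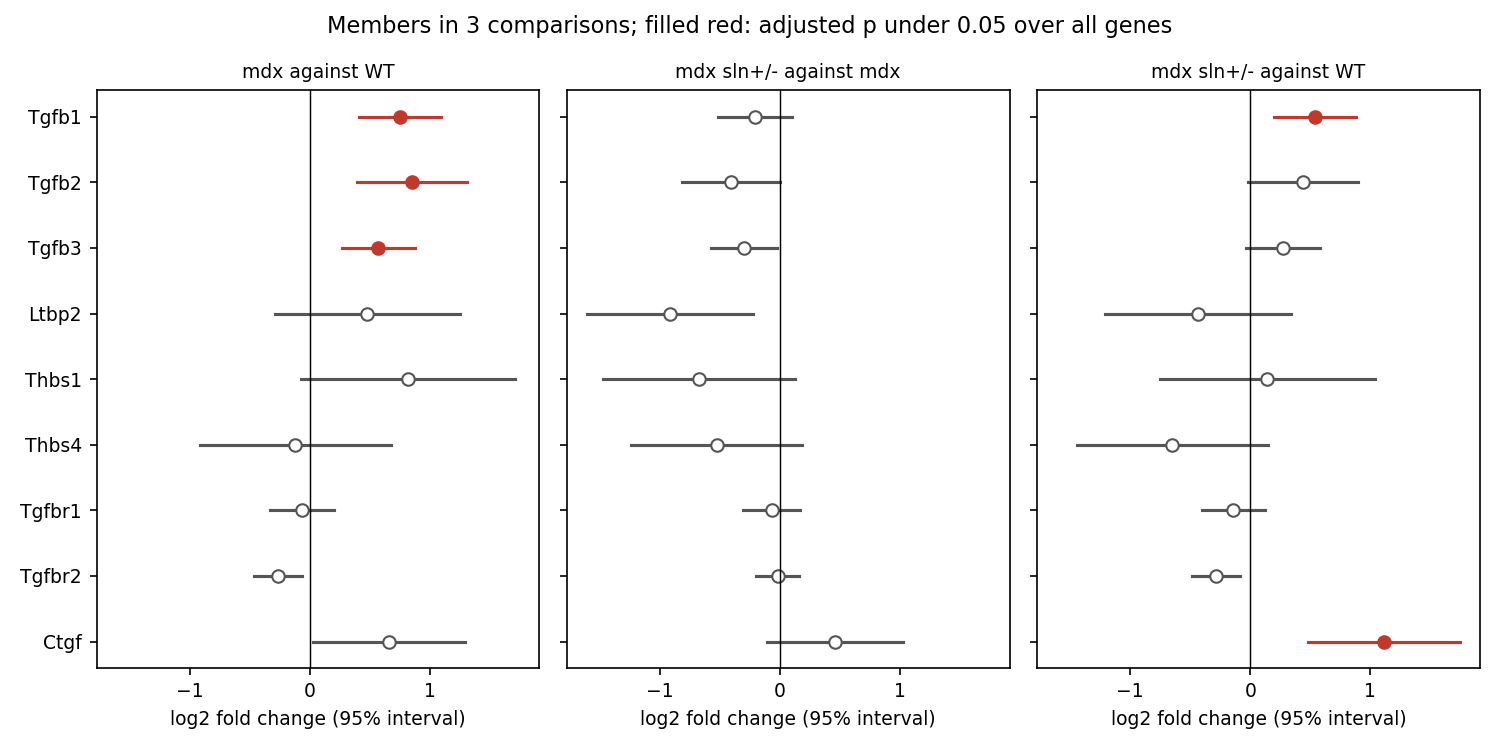
Log2 fold change of each member with its 95% interval from limma in the 3 pairs of groups; filled red markers have an adjusted p under 0.05 over all genes. The ligands are called in mdx against WT, no member is called in mdx sln+/- against mdx, and Tgfb1 and Ctgf are called in mdx sln+/- against WT.

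In mdx sln+/- against mdx, which asks what the loss of 1 Sln copy changes in the mdx ventricle, 0 members and 0% of all genes were called (limma, smallest adjusted p of any gene 0.477). At an unadjusted p under 0.05 there were 3 members (Tgfb2, Tgfb3 and Ltbp2), where 8.6% of all genes were at that level. The groups did not overlap for 3 members (Tgfb2, Ltbp2 and Thbs4), as for 24.8% of all genes. Estimates lay below 0 for 8 of the 9 members, with Ctgf as the exception, and the member median was -0.30 beside 0.03 for all genes.

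For the ligands, the mdx sln+/- minus mdx difference was -0.21 ± 0.13 for Tgfb1, -0.41 ± 0.17 for Tgfb2 and -0.30 ± 0.12 for Tgfb3. The 95% intervals of Tgfb2, -0.82 to -0.0045, and Tgfb3, -0.58 to -0.026, ended near 0, and that of Tgfb1 included 0. Among libraries with indexed names, mdx sln+/- minus mdx was -0.60 for Tgfb2, and between the 2 plain-named libraries it was -0.04. The ligand levels of mdx sln+/- thus stood between WT and mdx on average, but this step was not called.

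Ltbp2 showed the largest difference of a member between the 2 mdx groups, at -0.92 ± 0.30 or 1.89-fold lower in mdx sln+/- (limma, unadjusted p = 0.0163, adjusted p = 0.578). All 3 mdx sln+/- libraries, at 1.95 to 2.46, lay below all 3 mdx libraries, at 2.75 to 3.68. Without mdx 1 the difference was -0.61, and within the indexed and the plain library names it was -1.03 and -0.70. The r1 and r2 columns of a library differed more for Ltbp2 than for any other member, by a median of 0.18 and up to 0.46.

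Thbs1 and Thbs4 differed by -0.67 ± 0.34 and -0.53 ± 0.30 between mdx sln+/- and mdx, and the receptors by -0.07 ± 0.10 (Tgfbr1) and -0.02 ± 0.08 (Tgfbr2). Ctgf went the other way, with 0.45 ± 0.24 and a 95% interval of -0.11 to 1.02. Among the indexed libraries the Ctgf difference was 0.74, and between the plain-named libraries mdx sln+/- 3 and mdx 3, at 7.33 and 7.46, it was -0.12.

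In mdx sln+/- against WT, Tgfb1 and Ctgf rose, so that 2 of 9 members were called and both were higher. Over all genes 18.9% were called and 11.3% were called higher. No overlap with WT was found for 5 members, the same ones as in mdx, beside 59.8% of all genes. The comparisons of both mdx groups with WT share the WT libraries and are not independent.

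Ctgf rose by 1.11 ± 0.27 in mdx sln+/- against WT, or 2.16-fold (95% interval 1.39 to 3.35, limma, adjusted p = 0.0314). Its call was lost without WT 2 (0.84, adjusted p = 0.172) and without mdx sln+/- 1 (1.10, adjusted p = 0.0907). Tgfb1 rose by 0.54 ± 0.15, or 1.45-fold (95% interval 1.14 to 1.84, adjusted p = 0.0425). Its call was lost when WT 1, WT 2, mdx 3 or any 1 of the mdx sln+/- libraries was left out, with adjusted p of 0.055 to 0.2. It was also lost with median-ratio and upper-quartile scaling (limma, adjusted p = 0.064 and 0.056), from the r2 columns alone (0.053) and with the removed contrast not centred (0.054). Without both WT 2 and mdx sln+/- 3, 0 members and 129 genes in all were called.

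The other members did not pass in mdx sln+/- against WT. Tgfb2 and Tgfb3 were 0.44 ± 0.19 and 0.27 ± 0.13 above WT (limma, adjusted p = 0.151 and 0.183), and each mdx sln+/- library exceeded both WT libraries. Ltbp2 and Thbs4 had estimates of -0.44 ± 0.33 and -0.65 ± 0.34, whereas Thbs1 was at 0.14 ± 0.38 and Tgfbr1 at -0.14 ± 0.11. Tgfb2 was called higher without mdx 1 (limma, adjusted p = 0.035) and with only the 2 groups compared (0.047). Thbs4 was called lower without WT 1 (-1.25, adjusted p = 0.028).

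The transcripts of a member did not all follow its sum. Tgfb2, Tgfbr2 and Ltbp2 each had 2 coding transcripts that differ by an alternative exon whose length is a multiple of a codon, which is shown in capitals with 15 flanking bases of the neighbouring exons on each side, on the strand of the gene.
Tgfb2-206 exon 2 of 8, chr1:186690721-186690804, minus strand: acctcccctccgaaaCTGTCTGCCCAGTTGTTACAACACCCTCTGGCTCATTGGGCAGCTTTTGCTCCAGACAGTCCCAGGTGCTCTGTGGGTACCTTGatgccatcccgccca
Tgfbr2-202 exon 2 of 8, chr9:116158271-116158345, minus strand: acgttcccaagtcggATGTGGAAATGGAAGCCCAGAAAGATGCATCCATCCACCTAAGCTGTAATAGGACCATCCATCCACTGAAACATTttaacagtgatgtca
Ltbp2-201 exon 17 of 36, chr12:84803787-84803915, minus strand: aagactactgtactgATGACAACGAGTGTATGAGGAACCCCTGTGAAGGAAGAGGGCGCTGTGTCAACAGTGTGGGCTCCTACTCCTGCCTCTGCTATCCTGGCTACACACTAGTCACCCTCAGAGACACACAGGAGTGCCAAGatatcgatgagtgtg
The exon adds 28 codons in Tgfb2-206, 25 in Tgfbr2-202 and 43 in Ltbp2-201, and the Ltbp2 transcripts have 1 further coding difference. These are the isoforms to which the abundances below belong. They also differ outside the coding sequence. Tgfb2-201 and Tgfb2-206 have 5116 and 3485 bases, and Tgfbr2-201 and Tgfbr2-202 have 3476 and 8092. Ltbp2-201 and Ltbp2-202 have 6769 and 6602.

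For Tgfb2, the transcript without the exon, Tgfb2-201, made up 76.2% to 90.5% of the summed abundance in every library. Its linear abundance was 5.05 and 6.28 in the WT libraries, 13.2, 10.8 and 9.26 in the mdx libraries and 7.91, 8.72 and 9.10 in those of mdx sln+/-. In a limma fit over 29021 transcripts, where 10.8% were called in mdx against WT, Tgfb2-201 rose by 0.85 ± 0.16 (adjusted p = 0.0208). Tgfb2-206 was at 1.26 and 1.07 in the WT libraries, 4.12, 1.68 and 1.08 in the mdx libraries and 0.83, 1.31 and 0.96 in those of mdx sln+/-. It was high in mdx 1 and near the WT level in mdx 3, and its difference of 0.50 ± 0.34 did not pass (adjusted p = 0.382).

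For Tgfbr2, the lower level against WT lay mostly in Tgfbr2-201, the shorter transcript, which lacks the exon. Tgfbr2-201 had an abundance of 23.6 and 28.8 in the WT libraries, 21.1, 17.9 and 18.5 in the mdx libraries and 17.4, 19.4 and 17.8 in those of mdx sln+/-. It fell by 0.50 ± 0.12 in mdx sln+/- against WT (limma over transcripts, adjusted p = 0.0364, with 12.8% of transcripts called), and its difference in mdx was -0.43 ± 0.12 (adjusted p = 0.0618). Tgfbr2-202 had 30.1 and 32.3 in WT and 27.3 to 29.9 in the other libraries, with differences of -0.13 ± 0.08 in mdx and -0.12 ± 0.08 in mdx sln+/-, which did not pass (adjusted p = 0.35 and 0.386). The share of Tgfbr2-201 was 43.9% and 47.2% in WT and 38.4% to 41.9% in the 6 other libraries. The difference between the transcripts was not tested, nor can it be assigned to the exon, since the transcripts also differ in length outside it.

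For Ltbp2, the make-up of WT 2 differed from that of the other libraries. Ltbp2-202, without the exon, made up 56.9% of the sum in WT 2, 18.2% in WT 1 and 15.6% to 36.4% in the 6 other libraries. Ltbp2-201 was at 3.12 and 2.83 in the WT libraries, 8.21, 4.21 and 3.65 in the mdx libraries and 2.28, 3.35 and 2.66 in those of mdx sln+/-. For this transcript every mdx library exceeded every other library, with a difference from WT of 0.61 ± 0.29 (limma over transcripts, adjusted p = 0.205). How reads shared by transcripts were divided is not given, so these shares are uncertain.

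For Ctgf, the main coding transcript Ctgf-201 made up 91.5% to 93.3% of the sum. Its abundance was 107.7 and 73.3 in the WT libraries, 157.4, 109.7 and 160.4 in the mdx libraries and 192.9, 244.9 and 148.5 in those of mdx sln+/-. It rose by 1.10 ± 0.26 in mdx sln+/- against WT (limma over transcripts, adjusted p = 0.0337), and Ctgf-203 was 1.15 ± 0.32 higher (adjusted p = 0.052). Both transcripts were highest in mdx sln+/- 2.

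**Figure D3:**
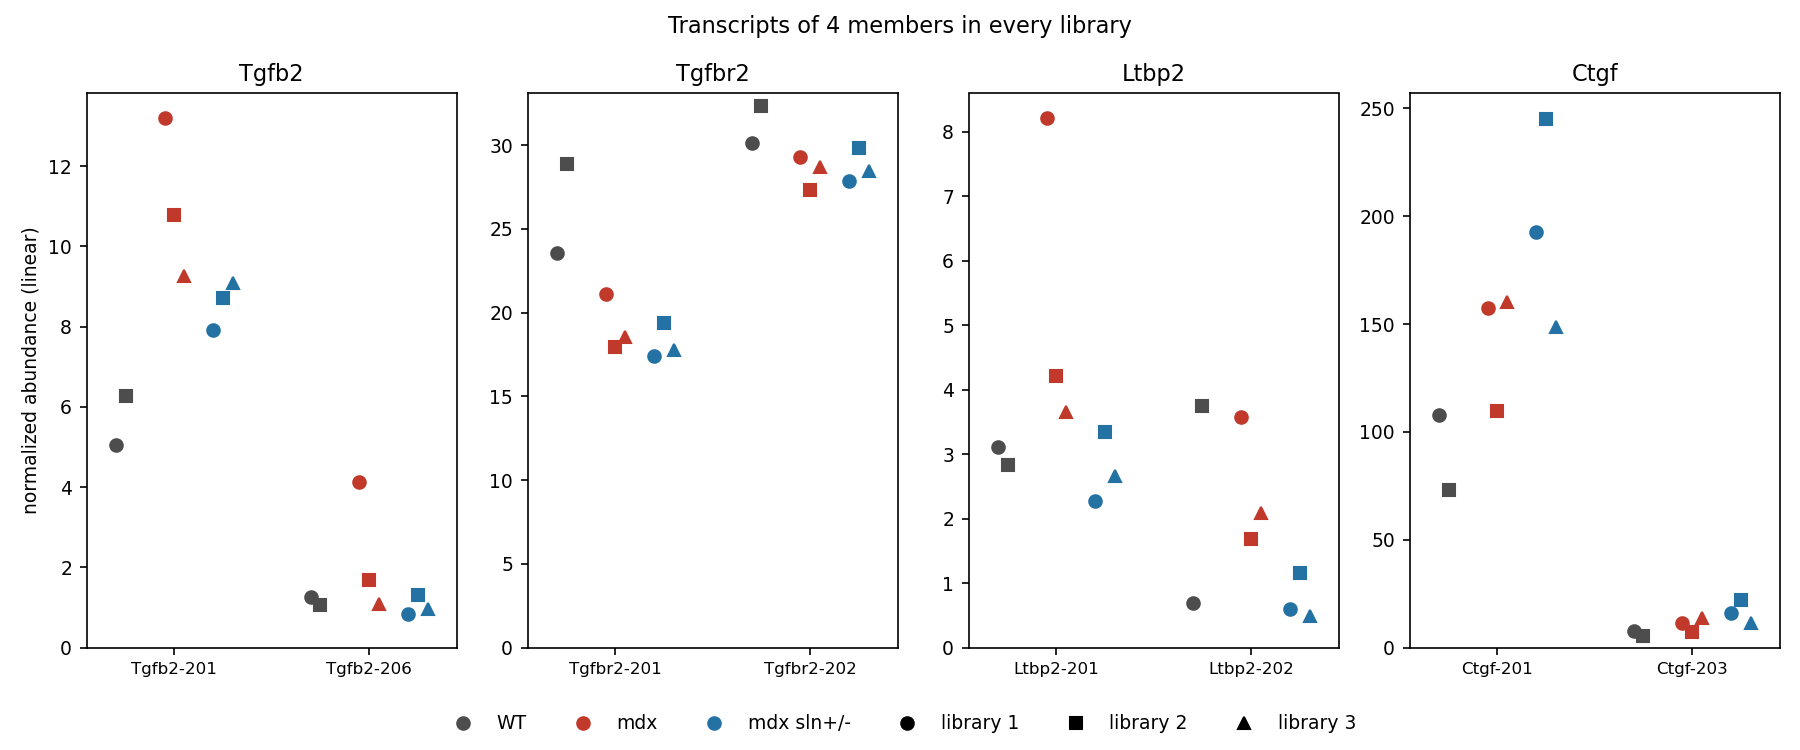
Linear normalized abundance of the transcripts of Tgfb2, Tgfbr2, Ltbp2 and Ctgf in every library, coloured by genotype with 1 marker shape per library number; Ctgf-202, below 1 in every library, is left out. WT libraries are highest for Tgfbr2-201, mdx 1 stands apart for Tgfb2-206 and Ltbp2-201, and WT 2 is high for Ltbp2-202.

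Genes on the opposite strand share exon bases with 5 members, and whether counting used strand is not given, so these levels are uncertain to that extent. The shared exon bases were 124 for Tgfb2, 163 and 257 for Tgfb3, 764 for Ltbp2, 208 for Thbs1 and 665 for Ctgf. Of the genes concerned only Gm15270, opposite Ctgf, was in the table, at a log2 level of 0.95 to 1.85. Gm15270 was 0.59 ± 0.21 higher in mdx sln+/- than in WT and was not called (limma, adjusted p = 0.0855).

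The ligands varied together over the 8 libraries. The Pearson correlation of log2 levels was 0.92 between Tgfb1 and Tgfb3, 0.93 between Tgfb2 and Tgfb3 and 0.83 between Tgfb1 and Tgfb2. These values describe libraries that share genotypes and normalization. The library mdx 1 was the highest for 6 members, namely the 3 ligands, Ltbp2, Thbs1 and Tgfbr1, and it was the highest for 15.2% of all genes. WT 2 was the highest for Thbs4 and Tgfbr2, and the lowest for Tgfb1 and Ctgf.

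By likeness of pattern (Pearson correlation of log2 levels over 8 libraries, 10195 genes searched), the genes nearest to each member were as follows. Tgfb1 was most like Arl8a and Cavin1 (0.99 for each), Tgfb2 like Rtn4 (0.996) and Trim8 (0.98), and Tgfb3 like Rhoc and Fbln2 (0.98 for each). Ltbp2 was most like Ccdc80 (0.97) and Nfe2l1 (0.96), Thbs1 like Crip1 (0.97) and Kctd11 (0.96), and Thbs4 like Gosr1 (0.99) and Micall1 (0.97). Tgfbr1 was most like Mfap5 (0.96) and Mmrn1 (0.95), Tgfbr2 like Abca2 and Snhg18 (0.98 for each), and Ctgf like Arsa (0.996) and Med19 (0.99). These are the highest of many correlations.

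The other genes of the pathway were read in 11 lists, and the 3 genes with the smallest p in mdx against WT are named for each. List and marker counts are to be read beside the shares over all genes. In mdx against WT these were 17.7% called and 9.56% called higher, with 1123 of 13783 genes called lower. In mdx sln+/- against WT they were 18.9% and 11.3%, with 1055 genes called lower. A count near these shares says nothing particular about its list. Of 13 other ligands of the superfamily, 1 rose (Bmp1, a protease despite its name) and 3 fell. The activin subunit gene Inhba fell by 0.62 ± 0.12, and the bone morphogenetic protein genes Bmp4 and Bmp6 fell by 0.82 ± 0.14 and 0.78 ± 0.15 (limma, adjusted p = 0.0151, 0.0122 and 0.0145). The median of this list was -0.16.

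Of 18 genes of latency and activation, 2 rose, 1 fell and 15 did not pass in mdx against WT. Itgb6, a subunit of an integrin that frees latent TGF-beta, had log2 levels of 1.93 and 1.77 in WT, of 3.29, 3.99 and 3.60 in mdx and of 3.44, 3.22 and 4.09 in mdx sln+/-. It rose by 1.78 ± 0.28 in mdx against WT, or 3.43-fold (limma, adjusted p = 0.00946), and by 1.73 ± 0.28 in mdx sln+/- against WT. Fbn1, the microfibril protein on which latent complexes are held, rose by 1.15 ± 0.12 (adjusted p = 0.00309), and Furin, a protease that cuts the propeptide, fell by 0.77 ± 0.10 (adjusted p = 0.0059).

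Of 9 other receptors and co-receptors, 0 rose and 3 fell in mdx against WT. These were the co-receptor gene Tgfbr3 with -0.59 ± 0.10, the activin receptor gene Acvr1b with -0.41 ± 0.07 and the bone morphogenetic protein receptor gene Bmpr2 with -0.42 ± 0.08 (limma, adjusted p = 0.0109, 0.0118 and 0.017). The list median was -0.18. Of 10 SMAD genes and nuclear partners only Smad2 passed, with 0.43 ± 0.09 (adjusted p = 0.0181), while Smad4 was at -0.30 ± 0.09 (adjusted p = 0.0519) and Smad3 at 0.29 ± 0.12 (adjusted p = 0.143).

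Of 17 inhibitors of the pathway, 3 rose and 3 fell in mdx against WT. Those that fell were the inhibitory SMAD genes Smad6, with -0.57 ± 0.11, and Smad7, with -0.61 ± 0.13, and the SMAD repressor gene Skil, with -0.62 ± 0.08 (limma, adjusted p = 0.0148, 0.0224 and 0.0059). Smad7 and Skil are themselves known as genes that TGF-beta signalling induces. Those that rose were the ubiquitin ligase gene Smurf1, the pseudoreceptor gene Bambi and Fkbp1a, whose product holds the type I receptor inactive. Of 11 genes of signalling beside SMAD, Rhoa and Mkl1 rose by 0.36 ± 0.06 and 0.66 ± 0.12, whereas Rock2, a kinase acting after RhoA, fell by 0.40 ± 0.08, as did Mkl2.

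Of 20 target genes of TGF-beta, 4 rose, 1 fell and 15 did not pass in mdx against WT, with a median of -0.03. Adam19, a membrane protease, rose by 2.00 ± 0.26 (limma, adjusted p = 0.00512), from 2.42 and 3.10 in WT to 4.59 to 5.04 in mdx. The transcription factor gene Sox9 rose by 0.64 ± 0.11 and the cell cycle inhibitor gene Cdkn2b by 0.76 ± 0.15 (adjusted p = 0.0125 and 0.0167). Sox9 was low, with an abundance of 0.88 and 0.78 in WT, under the filter value of 1. It stood at 2.04, 1.77 and 1.76 in mdx and at 0.87, 1.08 and 1.10 in mdx sln+/-. Cdkn2b was near the floor, with an abundance of 0.37 and 0.33 in WT. It reached the filter value of 1 only in mdx 1 and mdx 2, at 1.37 and 1.55. Cdkn2b thus entered the test only through the group where it was high, so its call among the 4 rises does not test that rise. The other called members were Timp1, which rose, and Timp3, which fell, both inhibitors of matrix proteases. Adam19 also rose in mdx sln+/- against WT, where Id2, Lox and Timp3 fell.

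Of 16 matrix genes raised in fibrosis, 7 rose and 0 fell in mdx against WT, with a median of 0.60. The fibrillar collagen gene Col3a1 was at 6.51 and 6.65 in the WT libraries, 8.42, 7.87 and 7.52 in the mdx libraries and 7.88, 8.12 and 8.16 in those of mdx sln+/-, and rose by 1.36 ± 0.24 in mdx (limma, adjusted p = 0.0122). Tnc, the gene of the matricellular protein tenascin C, rose by 1.41 ± 0.25, and the collagen crosslinking enzyme gene Loxl1 by 1.14 ± 0.19 (adjusted p = 0.0122 and 0.0112). The others that rose were Col1a1, Col5a1, Col5a2 and Meox1, a transcription factor gene of activated fibroblasts. In mdx sln+/- against WT, 6 rose and 1, Comp, fell.

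The relatives of the thrombospondins and of Ctgf moved in both directions. Of 7 tested, 2 rose and 2 fell in mdx against WT. Thbs2 fell by 1.04 ± 0.09, from 5.07 and 5.15 in WT to 3.98 to 4.19 in mdx, and Nov (Ccn3) fell by 1.01 ± 0.19 (limma, adjusted p = 0.00136 and 0.0149). Wisp2 (Ccn5) rose by 0.87 ± 0.17 in mdx (adjusted p = 0.0161) and was 0.09 ± 0.17 above WT in mdx sln+/-, where it did not pass. Cyr61 (Ccn1) also rose in mdx against WT.

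Ctgf is also known as a target of YAP and of the serum response factor, and 1 of 13 genes of that list rose in mdx against WT. This was the actin gene Actg1, with 0.39 ± 0.06 (limma, adjusted p = 0.0104), while Cnn2 and Ankrd1 were at 0.31 ± 0.10 and 0.74 ± 0.28 and did not pass (adjusted p = 0.0727 and 0.108). Of 10 immediate early genes, Egr1 and Atf3 rose by 3.18 ± 0.62 and 1.68 ± 0.22 (adjusted p = 0.0162 and 0.0053), and Fos was at 1.82 ± 0.53 (adjusted p = 0.054).

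Of the genes in the 11 lists, 0 were called in mdx sln+/- against mdx, and the list medians lay between -0.24 for the target genes and 0.07 for the SMAD genes. The list counts against WT rested largely on the WT libraries. Of the 28 named pathway genes called in mdx against WT, 21 were called without WT 1, 9 without WT 2 and 3 without WT 2 and mdx sln+/- 3, and all 28 kept their direction in each case. With the style of library name as a term, 6 of the 28 were called. For the matrix genes, the 7 that rose became 2 rises and 1 fall without WT 1, and 1 rise without WT 2. With name style as a term, 0 of the 16 matrix genes were called in mdx or in mdx sln+/- against WT, with medians of 0.47 and 0.40. For the target genes, the 4 rises and 1 fall became 2 rises without WT 1 and 1 rise without WT 2. When a library of the mdx groups was left out, the Smad2 call was lost without mdx sln+/- 1 and that of Smad7 without mdx 3 (limma, adjusted p = 0.0513 and 0.0528). Cdkn2b failed the filter without mdx 1 or mdx 2. These losses are of the named pathway genes in mdx against WT, and calls of named markers were lost as well.

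**Figure D4:**
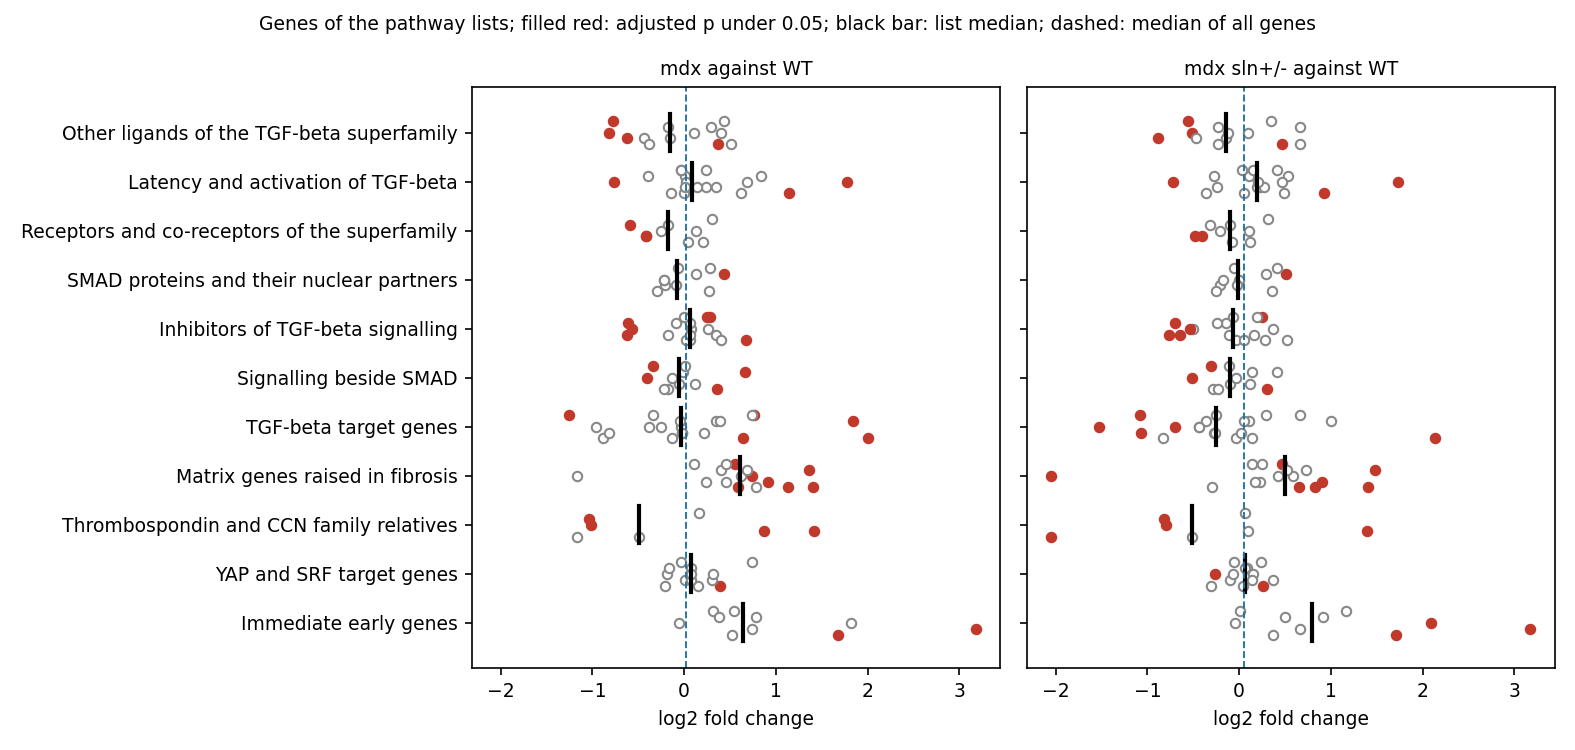
Log2 fold change of each gene of the 11 pathway lists in mdx against WT and in mdx sln+/- against WT; filled red points have an adjusted p under 0.05, black bars are list medians and the dashed line is the median of all genes. The matrix list has 7 called genes on the right and none on the left in mdx against WT, and the receptor list has 3 on the left and none on the right.

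Markers of the cells that make and receive TGF-beta were read beside the members. Of 11 fibroblast markers 1 rose in mdx against WT (Col15a1), and their summed abundance was 1060 to 1629 in WT, 1178 to 1366 in mdx and 1297 to 1412 in mdx sln+/-. The myofibroblast markers summed to 151 to 311, 178 to 274 and 147 to 214, and 1 of 7 rose in mdx (Meox1). In both lists WT 2 was the highest library. In WT 1 and WT 2, Gsn alone made up 667 and 1143 of the fibroblast sum. Acta2, which is also in the smooth muscle list, made up 84.1 and 160 of the myofibroblast sum there. Of 10 macrophage markers, 7 rose in mdx against WT, as the ligands did. Their sum was 179 to 191 in WT, 230 to 273 in mdx and 243 to 275 in mdx sln+/-. In mdx sln+/- against mdx their median difference was 0.065, whereas the ligand estimates lay below 0. Among these markers, Lyz2 rose by 0.49 ± 0.09 and Csf1r by 0.47 ± 0.13 in mdx against WT (limma, adjusted p = 0.014 and 0.048). The Csf1r call was lost without WT 1, WT 2, mdx 1, mdx 3, mdx sln+/- 1 or mdx sln+/- 3, and that of Lyz2 without WT 1. Of the 10, 3 rose without WT 1, 1 without WT 2 and 0 without WT 2 and mdx sln+/- 3, with median log2 differences of 0.59, 0.62 and 0.62. Of the 7 myofibroblast markers, 0 rose and 1 fell without WT 1, and 0 rose and 0 fell without WT 2. The part of these cells in the ligand levels was not tested.

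Platelets store TGF-beta1 and thrombospondin 1, and 4 of 8 platelet and megakaryocyte markers were in the table, with sums of 7.05 to 9.37 in WT, 8.28 to 12.4 in mdx and 8.18 to 9.15 in mdx sln+/-. Pf4 rose by 0.65 ± 0.16 in mdx against WT, and Gp1ba was at -0.37 ± 0.14 (limma, adjusted p = 0.032 and 0.111). The Pf4 call was lost without WT 1, mdx 1, mdx 3, mdx sln+/- 1 or mdx sln+/- 3. Haemoglobin and the other blood markers summed to 328 to 471, 284 to 904 and 289 to 542, with 0 of 5 called. Cardiomyocyte markers, the check of the labelled tissue, summed to 40890 to 41222 in WT, 43891 to 47928 in mdx and 43529 to 46472 in mdx sln+/-, and 1 of 8 rose in mdx (Nppa). Of the 6 atrial markers, Myl4 and Myl7 were not in the table, Nppa and Gja5 rose and Stard10 fell, and the sums were 284 to 399, 528 to 707 and 512 to 677. Of 8 markers of skeletal muscle and tendon, 5 were not in the table and Acta1, which the heart also expresses, fell by 1.34 ± 0.28 in mdx against WT, while Mybpc2 was at 0.41 ± 0.22 (limma, adjusted p = 0.0189 and 0.224). Of the 2 genes tested from the lymphocyte list, Ighm rose by 0.70 ± 0.18 in mdx against WT (limma, adjusted p = 0.0367). Ptprc, which other leukocytes also express, was at 0.82 ± 0.27 and did not pass (limma, adjusted p = 0.0749). The T and B cell markers Cd3e, Cd8a and Cd79a were not in the table. The Ighm call was lost without WT 1, WT 2, mdx 2 or any 1 of the mdx sln+/- libraries. The calls of Nppa, Stard10 and Acta1 in mdx against WT were lost without WT 2, among other libraries.

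The 2 markers of mesothelium and valve tested, Prg4 and Wt1, were not called. Their list summed to 10.4 and 35.3 in WT 1 and WT 2, 17.5 to 29.2 in mdx and 6.41 to 9.74 in mdx sln+/-. In this sum all mdx sln+/- libraries lay below all mdx libraries, as they did for Ltbp2 and Thbs4. WT 2 was the highest library both for this sum and for Thbs4. The sum mainly followed Prg4, which stood at 33.7 in WT 2. Wt1 did not share the pattern, with log2 levels of 1.47, 1.76 and 2.28 in mdx and of 1.66, 1.69 and 1.44 in mdx sln+/-. WT 2 was the lowest library for Wt1. The part of such tissue in the Ltbp2 and Thbs4 levels was not tested. The endothelial markers summed to 576 to 667 in WT, 644 to 739 in mdx and 674 to 726 in mdx sln+/-, with 2 of 8 higher and 1 lower in mdx against WT. The smooth muscle and pericyte markers summed to 622 to 626, 677 to 883 and 668 to 835, with 3 of 10 higher.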

How the data were processed

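RNA of the left ventricle was sequenced with paired ends in 8 libraries, per the labels. Reads were processed with STAR 2.6.1, Partek and limma on mm10, per the submitters' processing notes, whose settings are not given in the sources used here. The authors deposited log2 values per transcript (33027 transcripts, 14578 genes), in 2 columns per library, named r1 and r2, per the file headers. The values run from 3.07e-05 to 16.2 and were taken as log2(normalized abundance + 1). What r1 and r2 stand for is not given, and both were averaged to 1 replicate (Pearson correlation 0.981 to 0.987). Depth is unknown, and so is the precision it gives.

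Log2 values were averaged, turned to linear abundances, summed per gene and put on the log2(value + 1) scale. Testing took in the 13783 genes that reached a value of 1 in 2 or more libraries, and 795 were left out. The design held a count test and, for normalized values, limma (3.58.1, R 4.3.3), which was used: all 8 libraries in 1 fit, with group and the removed difference as terms (4 residual degrees of freedom), a trended prior (3.37 degrees of freedom at the median) and Benjamini-Hochberg adjustment over all genes, threshold 0.05. Scripts were tested on simulated data first. Without the removed term the fit counts 5 residual degrees of freedom, 1 of which was used before deposit. Where mdx 2 or mdx sln+/- 2 was left out, the term fitted only the other of them against its own group.

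The members, the 11 pathway lists and the 12 marker lists were chosen with earlier results of these data known. The rule for named genes takes every member, the 3 genes of each pathway list with the smallest p in mdx against WT, the 2 markers of each cell type with the highest mean level and the 2 genes most like each member in pattern, among genes with a mean log2 level of at least 2; Dmd, Eif2s3y and genes that complete a count were named in addition, after their values were seen. Alternatives were other fits, scalings, filters, pseudocounts, columns and libraries left out. Python 3.11.15, numpy 2.4.6, pandas 2.3.3 and matplotlib 3.10.9 were used. Gene positions are from GENCODE M21, and upstream windows from RefSeq. Some list genes were counted with their lists but are not reported here by name.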

Additional observations from a re-analysis of the deposited data

How the results depend on the processing

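Over 23 alternatives, 22 of them planned, 0 genes and 0 members were called in mdx sln+/- against mdx. In mdx against WT, 2440 genes were called; there were 3798 with group only, 360 with library name style as a term, 999 with only the 2 groups compared and 172 without WT 2 and mdx sln+/- 3. Leaving out 1 library gave 735 (without WT 2) to 2344 genes, with 1272 without mdx sln+/- 1. The 3 members called became 0 with name style and without both libraries, and 0 (without WT 2) to 5 (without mdx 2) with 1 library left out. In mdx sln+/- against WT, 2607 genes were called; there were 3996 with group only, 503 with name style and 129 without both libraries. Leaving out 1 library gave 824 (without mdx sln+/- 1) to 3030, with 895 without WT 2, 1673 without mdx sln+/- 2 and 1142 without mdx sln+/- 3. The 2 members called became 0 with name style and without both libraries, 1 from the r2 columns alone and 1 with the removed contrast not centred, an alternative chosen after seeing the data, as was the fit over transcripts; with 1 library left out they were 0 (without WT 2 or mdx sln+/- 1) to 4 (without mdx 1). The share of calls that were higher in that comparison was 59.5%, against 45.6% with median-ratio and 48.2% with upper-quartile scaling. The cause of these changes was not tested.

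Sign changes occurred only in uncalled values of members. In mdx against WT, Thbs4 was 0.48 and Tgfbr1 0.036 without WT 2 and mdx sln+/- 3 together; with 1 library left out, Thbs4 ran from -0.73 (without WT 1) to 0.48 (without WT 2), with 0.06 without mdx 3, and Tgfbr1 from -0.17 to 0.036. In mdx sln+/- against mdx, Tgfbr2 was 0.015 from its most abundant transcript; with 1 library left out, Tgfbr2 ran from -0.056 to 0.020 (without mdx 1) and Tgfbr1 from -0.12 to 0.015 (without mdx 1). In mdx sln+/- against WT, Thbs1 ran from -0.26 (without WT 1) to 0.55 (without WT 2). Whether the replicate numbers in the titles pair the libraries could not be judged from the values. As deviations from group means, 1 of 8 libraries correlated best with its own number. In such deviations the WT libraries mirror each other by construction. The removed difference likewise forces mdx 2 and mdx sln+/- 2 apart, with a correlation of -0.996. With the replicate block, 2397, 0 and 2363 genes and 3, 0 and 2 members were called.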
